A study of Mus musculus with 12 samples.

Results

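This report describes 9 genes of interferon signalling in CT26, a mouse colon carcinoma cell line: the receptor chains IFNGR1, IFNGR2, IFNAR1 and IFNAR2, the ligand IFNB1, and the Janus kinases JAK1, JAK2, JAK3 and TYK2. The genes were chosen by name for their place in the pathway, and all 9 of 9 were found among the 23636 gene symbols of the table. They and the gene lists below were chosen with earlier results of these data known, so counts of calls among them describe and do not test. CT26 cells were left untreated (No treatment), or were given CX3CL1 at 2 µg/ml, IFN-γ at 100 ng/ml, or both proteins (CX3CL1+IFN-γ), for 8 hours. The study's text describes IFN-γ and TNF-α and then CX3CL1, while its figure legend and the sample titles name no TNF-α. Each group had 3 biological replicates, so 12 RNA-seq libraries were compared. CX3CL1 is a chemokine whose receptor is CX3CR1, and the series asked how this chemokine, alone and beside IFN-γ, alters the transcriptome of a tumour cell line. All libraries came from the same line with no added gene or deletion named in the labels. CX3CR1 itself was listed at 0 to 0.154 TPM over the 12 libraries. This is an RNA level, while the study reported high CX3CR1 on CT26 cells by flow cytometry, which measures protein.

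Interferons signal through pairs of receptor chains that carry Janus kinases. IFN-γ, the type II interferon, binds IFNGR1, which carries JAK1, and recruits IFNGR2, which carries JAK2. Type I interferons, among them IFN-β (the product of IFNB1), bind IFNAR2 with JAK1 and IFNAR1 with TYK2. The kinases phosphorylate STAT proteins, which then bind GAS or ISRE elements in DNA and switch on interferon response genes. JAK3 is the kinase of the common gamma chain (IL2RG) of interleukin receptors and is best known from lymphocytes.

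Levels are given as TPM (transcript abundance scaled by transcript length and to a fixed sum per library), always in the order of replicates 1, 2 and 3. Differences are between mean log2(TPM + 1) values, where genes near 0 show less than their true change, and are given with their standard error (SE). They come from 1 limma model over all 12 libraries and the 11878 genes that averaged 0.2 TPM or more. A gene was called where its Benjamini-Hochberg adjusted p, taken over all genes tested, was under 0.05. The "averaged" effect of IFN-γ sets the 6 libraries with IFN-γ against the 6 without it, giving both backgrounds of CX3CL1 the same weight, and the averaged effect of CX3CL1 does the same for CX3CL1.

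All 12 libraries summed to 1000000 TPM and had 10613 to 10824 symbols at 1 TPM or more, and read depth is unknown. CX3CL1 replicate 2 was the library least like the others of its group, with median absolute log2 differences of 0.208 and 0.202 from replicates 1 and 3, which differed from each other by 0.113. Of 25 genes known to respond to interferon, 24 were tested, as CIITA, at group means of 0 to 0.0156 TPM, did not pass the filter. Of the 24, 23 were called higher with IFN-γ alone, 23 with both proteins and 12 with CX3CL1 alone. Over all genes tested the shares called in either direction were 7.85%, 11.9% and 1.95%. CXCL9 passed that filter only through the libraries with IFN-γ. Epithelial markers were mostly missing from this carcinoma line: EPCAM and CLDN7 were at 0 in all 12 libraries, 7 of 9 markers stayed under 1 TPM, and KRT18 and KRT20 were the exceptions. The summed level of the 9 epithelial markers was 51.2 to 64.7 TPM in No treatment and 24.9 to 33.2 TPM with both proteins, and KRT18, a keratin of simple epithelia, was called lower with IFN-γ alone (-0.68, adjusted p = 0.0346) and with both (-1.02, adjusted p = 0.00171). All 6 mesenchymal markers passed the filter on low values. Their summed level ran from 4305 to 5459 TPM in No treatment and from 2244 to 3585 TPM with both proteins. Of them, 2 were called lower with IFN-γ alone, 4 with both and 0 with CX3CL1 alone, beside 7.85%, 11.9% and 1.95% of all genes. Of 9 leukocyte markers only CD68 and LYZ2 passed 1 TPM in any library, with a summed level of 8.99 to 17.7 TPM in No treatment and 10.2 to 27.5 TPM with both proteins, and none of the others exceeded 0.182 TPM. The pan-leukocyte marker PTPRC peaked at 0.0441 TPM and the T cell marker CD3E was at 0 in every library. The part of these marker levels in the results was not tested.

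IFNAR2 and JAK3 rose with IFN-γ when both backgrounds were averaged, and IFNB1, which the filter kept only because of its level in the libraries with IFN-γ, was called as well. IFNAR2, the high-affinity chain of the type I receptor, rose by 0.72 (SE 0.14, adjusted p = 0.00461). JAK3 rose by 0.66 (SE 0.14, adjusted p = 0.00536). IFNB1 rose by 0.56 (SE 0.12, adjusted p = 0.00562) but stayed under 1 TPM throughout. These are bulk libraries, in which more RNA per cell and more cells that express a gene cannot be told apart. These were 3 of 9 genes called, IFNB1 included, beside 17.3% of all genes tested. CX3CL1 averaged over IFN-γ gave 0 of 9 calls, beside 2.54% of all genes. At an unadjusted p under 0.05 it gave 4 of the 9 (JAK2, IFNGR2, IFNAR2 and JAK1), beside 1309 of the 11878 genes. The interaction, which asks whether the effect of CX3CL1 differs with IFN-γ present, gave 0 calls among the 9 and 0% among all genes, against 273 genes at an unadjusted p under 0.05.

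**Figure D1:**
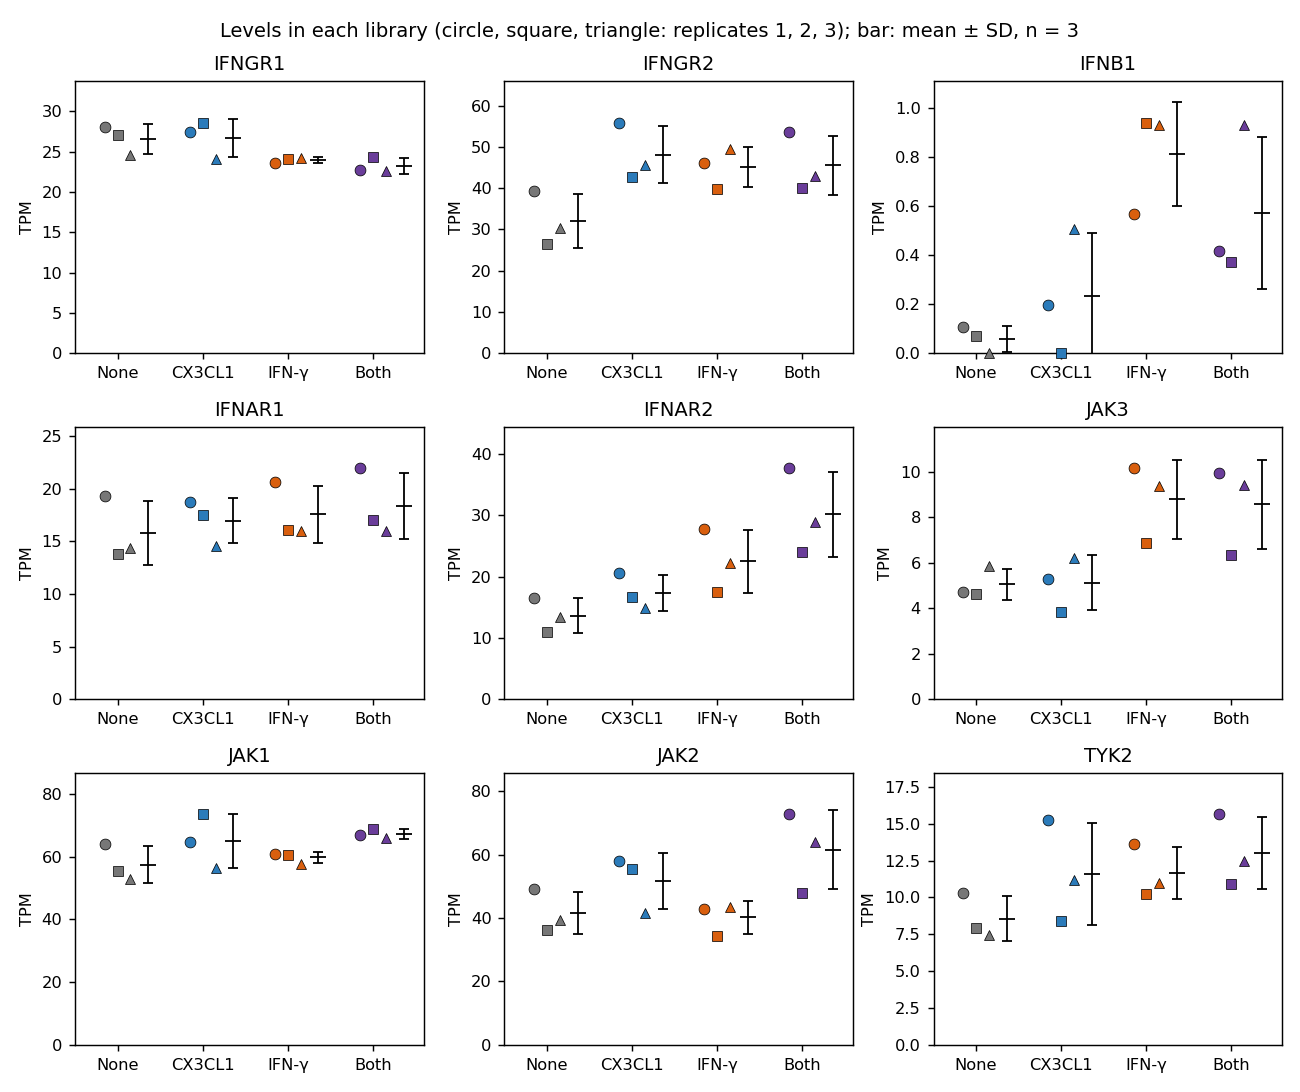
TPM of the 9 genes (vertical axes, from 0) in each of the 12 libraries by treatment; circles, squares and triangles are replicates 1, 2 and 3, and the bar beside them is the mean ± SD (n = 3), its lower end for IFNB1 with CX3CL1 stopping at the axis. The 6 libraries with IFN-γ all lie above the 6 without it for JAK3, and IFNAR2 reaches its highest group mean, 30.2 TPM, with both proteins.

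In No treatment the 9 genes covered a wide range of levels. JAK1 stood highest at 57.4 ± 5.89 TPM (SD, n = 3), followed by JAK2 at 41.6 ± 6.76, IFNGR2 at 32.0 ± 6.59, IFNGR1 at 26.5 ± 1.82, IFNAR1 at 15.8 ± 3.07, IFNAR2 at 13.6 ± 2.82, TYK2 at 8.57 ± 1.53, JAK3 at 5.06 ± 0.68 and IFNB1 at 0.0593 ± 0.054. The libraries of neighbours in this order overlapped for JAK2 and IFNGR2, for IFNGR2 and IFNGR1, and for IFNAR1 and IFNAR2, and did not overlap for the other neighbours. JAK1 led and IFNB1 was last in all 4 groups. IFNAR2 moved most in the order, from the sixth place in No treatment to the fourth with both proteins, where its libraries overlapped those of IFNGR1 and no longer those of IFNAR1. Among the genes tested, the group mean of JAK1 lay at the 74.7th to 77.0th percentile, while IFNAR2 went from the 38.2nd to the 56.5th.

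IFNGR1 is the ligand-binding chain for IFN-γ and lies on chromosome 10 (GRCm38 chr10:19591949-19610229, plus strand). It was listed at 28.0, 27.1 and 24.5 TPM in No treatment, 27.4, 28.6 and 24.0 with CX3CL1, 23.6, 24.1 and 24.1 with IFN-γ, and 22.7, 24.3 and 22.6 with both. The 3 IFN-γ libraries and the 3 libraries with both proteins all lay below the 3 untreated ones, by less than 1 TPM at the nearest. The fitted difference for IFN-γ was -0.14 (SE 0.10, adjusted p = 0.427), and the averaged IFN-γ effect was -0.17 (SE 0.07, adjusted p = 0.113), with a 95% interval of -0.31 to -0.02, and neither was called. With the replicate number as a block, the averaged effect was called lower (adjusted p = 0.0463). CX3CL1 averaged over IFN-γ gave -0.02, with an interval of -0.17 to 0.13.

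IFNGR2, the signal-transducing chain that carries JAK2, is part of a receptor cluster on chromosome 16 (chr16:91547072-91565623, plus strand). It was listed at 39.3, 26.5 and 30.2 TPM in No treatment, 55.9, 42.8 and 45.5 with CX3CL1, 46.2, 39.8 and 49.4 with IFN-γ, and 53.6, 40.0 and 43.1 with both. The 9 treated libraries all exceeded the 3 untreated ones, and the 3 treated groups overlapped one another. The difference from No treatment was 0.58 for CX3CL1 (SE 0.16, adjusted p = 0.116), 0.49 for IFN-γ (adjusted p = 0.0831) and 0.50 for both (adjusted p = 0.0615), so none was called. These comparisons share the same untreated libraries, of which replicate 1 was the highest. Without No treatment replicate 1 all 3 differences were called, at 0.73, 0.65 and 0.66 (adjusted p = 0.0324, 0.0302 and 0.0181). With the replicate number as a block all 3 were called as well (adjusted p = 0.00559, 0.00546 and 0.00347 in the same order). The interaction estimate was -0.57 (SE 0.23, unadjusted p = 0.0255, 95% interval -1.06 to -0.08), which did not pass adjustment.

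IFNAR1, the low-affinity chain that carries TYK2, lies upstream of IFNGR2 in the same cluster (chr16:91485238-91507441, plus strand). Its values were 19.4, 13.8 and 14.3 TPM in No treatment, 18.8, 17.6 and 14.6 with CX3CL1, 20.7, 16.1 and 15.9 with IFN-γ, and 22.0, 17.1 and 16.0 with both. All groups overlapped. The averaged IFN-γ effect was 0.12 (SE 0.12, adjusted p = 0.497), with a 95% interval of -0.13 to 0.38, and the averaged CX3CL1 effect was 0.08 (interval -0.17 to 0.33).

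IFNAR2 (chr16:91372783-91405589, plus strand) binds type I interferons with high affinity and carries JAK1. It was listed at 16.5, 10.9 and 13.4 TPM in No treatment, 20.5, 16.6 and 14.8 with CX3CL1, 27.8, 17.4 and 22.2 with IFN-γ, and 37.6, 23.9 and 28.9 with both. The libraries with both proteins all exceeded the untreated and the CX3CL1 libraries, and the IFN-γ libraries all exceeded the untreated ones, while CX3CL1 overlapped No treatment and IFN-γ overlapped CX3CL1. IFNAR2 rose by 1.09 with both proteins against No treatment (SE 0.20, adjusted p = 0.00317), the largest difference among the 9 genes in any of the 8 comparisons on this scale. This call held in 20 of 20 alternative settings. With IFN-γ alone the difference was 0.68 (adjusted p = 0.0646), and adding IFN-γ to CX3CL1 gave 0.75 (adjusted p = 0.0575). Adding CX3CL1 to IFN-γ gave 0.41 (SE 0.20, adjusted p = 0.975), with an interval of -0.03 to 0.85.

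Among the groups compared with each other, same-numbered libraries deviated together for No treatment with IFN-γ, CX3CL1 with both proteins and IFN-γ with both proteins. In the fit with the replicate number as a block, IFNAR2 was called for IFN-γ against No treatment (adjusted p = 0.00111) and for both proteins against CX3CL1 (adjusted p = 0.000864). JAK3 was called in both of these as well (adjusted p = 0.00215 and 0.00444), and IFNGR2 (adjusted p = 0.00546) and TYK2 (adjusted p = 0.0227) for IFN-γ against No treatment. With the block, 5 of 9 genes were called for IFN-γ against No treatment in place of 1, while the calls over all genes went from 932 to 1929. For both proteins against CX3CL1 the block gave 2 of 9 in place of 0, with 1369 genes in place of 558. For both proteins against IFN-γ it left 0 of 9, with 95 genes in place of 43. For the averaged IFN-γ effect the block added IFNGR1 (lower), IFNGR2 (0.21, adjusted p = 0.0393) and TYK2 (adjusted p = 0.0136), 6 of 9 in place of 3, with 3442 genes in place of 2059. For CX3CL1 against No treatment the block called IFNGR2 (adjusted p = 0.00559), 1 of 9 in place of 0. Calls over all genes there went from 232 to 455. For the averaged CX3CL1 effect it called IFNAR2 (adjusted p = 0.0116), JAK2 (adjusted p = 0.0239) and IFNGR2 (adjusted p = 0.0287). These were 3 of 9 in place of 0, with 628 genes in place of 302.

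The windows before the transcription starts of IFNAR2, IFNGR2 and IFNB1 were searched for elements that interferon and NF-kB signalling are known to use. These 3 are shown because they were the only ones of the 9 with a match. Sequences are from RefSeq on GRCm38.p6, which had an entry for all 9 genes. Each stretch holds 120 bases, 5′ to 3′ on the gene's strand, with matches in capitals. In IFNAR2 (chr16:91372533-91372652) the capitals mark a GAS match. In IFNGR2 (chr16:91546919-91547038) they mark an NF-kB match that reads on the opposite strand. In IFNB1 (chr4:88522871-88522990, minus strand) they mark a looser NF-kB match and a TATA match.
IFNAR2: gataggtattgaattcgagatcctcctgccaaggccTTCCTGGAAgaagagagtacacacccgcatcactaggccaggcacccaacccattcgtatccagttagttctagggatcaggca
IFNGR2: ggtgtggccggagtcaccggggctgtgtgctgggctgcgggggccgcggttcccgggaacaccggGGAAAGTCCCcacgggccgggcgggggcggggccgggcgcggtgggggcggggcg
IFNB1: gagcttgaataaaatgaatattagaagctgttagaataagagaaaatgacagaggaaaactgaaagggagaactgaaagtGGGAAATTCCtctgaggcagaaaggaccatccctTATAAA

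The letters searched, on both strands of the 250 bases before each start, were TTCNNNGAA for GAS, GAAA and GAAA around any 2 bases for an ISRE core, GGGA and TTTCC around any 1 base for NF-kB, and TATAAA for a TATA box. A looser NF-kB form, GGGA and TTCC around any 2 bases, which includes the stricter one, was added after the sequences had been seen. The GAS match of IFNAR2 lay 214 to 206 bases before the start, and 7.02% of 32851 promoter windows held such a match. The NF-kB match of IFNGR2 lay 75 to 66 bases before the start (0.356% of windows; 1.21% for the looser form), and the looser match of IFNB1 lay 116 to 107 bases before it. IFNB1 had TATA matches beginning 210 and 82 bases before the start (12.4% of windows). No exact match of the ISRE core (2.98% of windows) lay in any of the 9 windows. Unlike for NF-kB, no looser form of it was searched, so related elements with other spacing would have been missed. A match describes letters and does not show that a factor was bound.

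**Figure D2:**
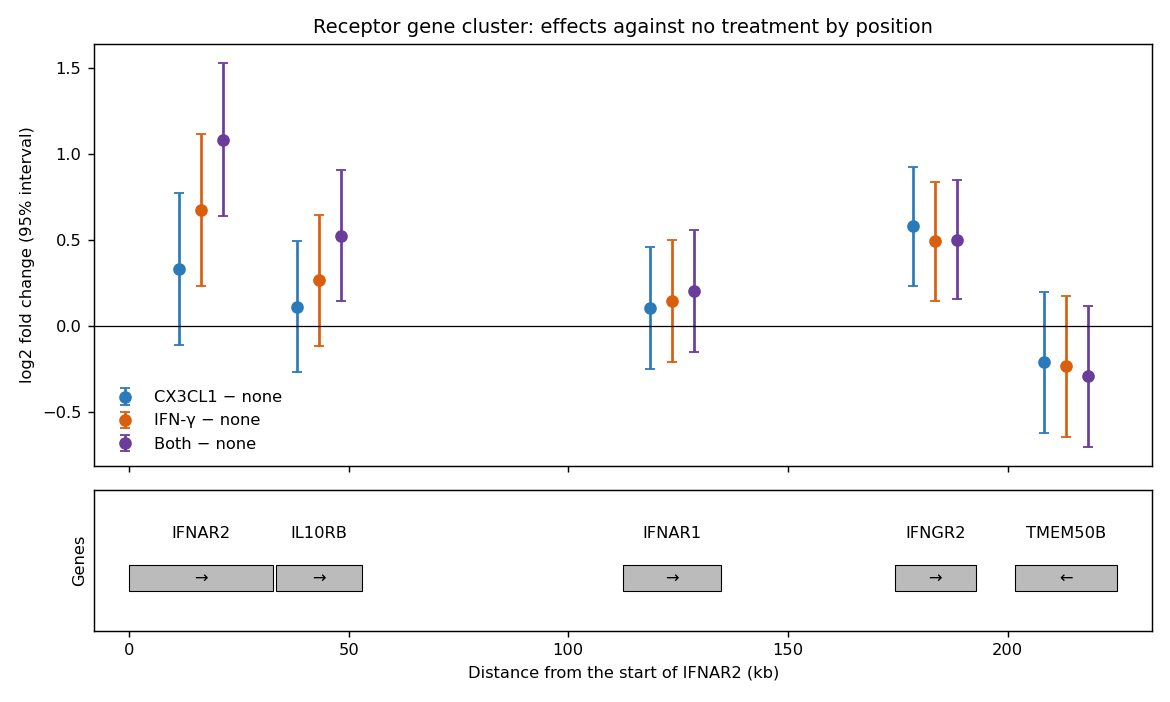
Log2 fold changes against No treatment (upper axis, limma on log2(TPM + 1), with 95% intervals) for CX3CL1, IFN-γ and both proteins at the genes of the chromosome 16 receptor cluster, placed by distance in kb from the start of IFNAR2; boxes below are the genes with the direction of transcription. IFNAR2 with both proteins, at 1.09, is the one called, and TMEM50B beside IFNGR2 lies below 0 in all 3 comparisons.

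IFNAR2, IL10RB, IFNAR1 and IFNGR2 follow one another on the plus strand within 192.8 kb, and IFNAR2 was the one of them called in a comparison with No treatment. IL10RB, the second chain of the IL-10 and interferon-lambda receptors, starts 574 bases after the end of IFNAR2. It averaged 19.0 ± 3.54 TPM in No treatment and 27.8 ± 4.94 with both proteins (SD, n = 3), a difference of 0.53 (SE 0.18, adjusted p = 0.074). IFNAR1, between IL10RB and IFNGR2, differed by 0.21 in that comparison (adjusted p = 0.497). TMEM50B, on the other strand next to IFNGR2, differed by -0.29 (adjusted p = 0.389). Another gene model, Gm21970, covers parts of IFNAR2 and IL10RB on the same strand, and how reads in that overlap were assigned is not given in the sources used here.

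IFNB1 (chr4:88522025-88522774, minus strand, 1 exon) encodes IFN-β. It was listed at 0.106, 0.0720 and 0 TPM in No treatment, 0.199, 0 and 0.506 with CX3CL1, 0.568, 0.941 and 0.930 with IFN-γ, and 0.416, 0.373 and 0.930 with both. The 6 libraries with IFN-γ all exceeded the 3 untreated ones, and 1 CX3CL1 library, replicate 3, lay among them. It averaged 0.147 TPM over the 6 libraries without IFN-γ and 0.693 TPM over the 6 with it, so that it passed the minimum of 0.2 TPM only through the libraries with IFN-γ, and its calls are not independent of that filter. IFNB1 rose by 0.77 with IFN-γ alone (SE 0.17, adjusted p = 0.0116) and by 0.55 with both (SE 0.17, adjusted p = 0.0471). CX3CL1 alone gave 0.20 (adjusted p = 1.0), with a 95% interval of -0.16 to 0.56. With IFN-γ alone the call was lost without No treatment replicate 3 (0.73, adjusted p = 0.0591), without IFN-γ replicate 3 (0.72, adjusted p = 0.0569) and with no filter on low values (adjusted p = 0.0599). With no filter the call for both proteins was lost too (adjusted p = 0.142), while the averaged effect was still called. The size of the difference depended on the pseudocount: with 0.1 in place of 1 it was 2.55 for IFN-γ alone, 2.05 for both proteins and 1.91 for the averaged effect, each called.

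At these levels IFNB1 was in the lowest 8 percent of the genes tested: its group means lay between the 0.544th and the 7.95th percentile, and the number of reads behind its values is not known. Of 20 other interferon genes (type I, type III and IFNG), 16 were at 0 in all libraries and none passed the filter. IFNA4 reached 0.526 TPM in 1 library, the highest of them, and IFNG, whose protein was added to the medium, was above 0 in 1 library, at 0.0647 TPM.

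JAK1, the kinase shared by both interferon receptors (chr4:101152367-101265282, minus strand), stayed between 52.8 and 73.5 TPM. It was listed at 64.0, 55.4 and 52.8 TPM in No treatment, 64.8, 73.5 and 56.4 with CX3CL1, 60.8, 60.6 and 57.8 with IFN-γ, and 66.9, 68.7 and 65.8 with both. The libraries with both proteins exceeded the IFN-γ and the untreated libraries, and the other groups overlapped. The averaged IFN-γ effect was 0.06 (SE 0.08, adjusted p = 0.639), with an interval of -0.10 to 0.22. The averaged CX3CL1 effect was 0.17 (SE 0.08, unadjusted p = 0.0438, adjusted p = 0.427).

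JAK2, which IFNGR2 carries (chr19:29251828-29313080, plus strand), was listed at 49.2, 36.3 and 39.3 TPM in No treatment, 58.0, 55.5 and 41.5 with CX3CL1, 42.8, 34.2 and 43.6 with IFN-γ, and 72.8, 48.1 and 64.0 with both. The libraries with both proteins lay above all IFN-γ libraries, and IFN-γ overlapped No treatment. Adding CX3CL1 to IFN-γ gave 0.59 (SE 0.18, unadjusted p = 0.00554, adjusted p = 0.474). The averaged CX3CL1 effect was 0.45 (SE 0.12, adjusted p = 0.0995), with an interval of 0.18 to 0.72, while the averaged IFN-γ effect was 0.10 (interval -0.17 to 0.37). Without CX3CL1+IFN-γ replicate 2 the averaged CX3CL1 effect was called (0.53, adjusted p = 0.0341). It was also called with the replicate block (adjusted p = 0.0239) and with median-ratio scaling (adjusted p = 0.0484).

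TYK2, the partner of IFNAR1 (chr9:21104068-21131243, minus strand), was listed at 10.3, 7.95 and 7.44 TPM in No treatment, 15.3, 8.39 and 11.2 with CX3CL1, 13.6, 10.3 and 11.0 with IFN-γ, and 15.6, 10.9 and 12.5 with both. The libraries with both proteins all exceeded the untreated ones. That difference was 0.55 (SE 0.20, adjusted p = 0.103), and the averaged effects were 0.29 for IFN-γ (adjusted p = 0.185) and 0.26 for CX3CL1 (adjusted p = 0.568), so TYK2 was not called. With the replicate block the averaged IFN-γ effect was called (adjusted p = 0.0136). An antisense gene model spans most of TYK2, and the libraries were strand-specific, though how strand entered the TPM values is not given in the sources used here.

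JAK3 (chr8:71676296-71690575, plus strand) was listed at 4.70, 4.63 and 5.84 TPM in No treatment, 5.30, 3.84 and 6.23 with CX3CL1, 10.2, 6.85 and 9.37 with IFN-γ, and 9.97, 6.33 and 9.44 with both. The lowest library with IFN-γ, at 6.33 TPM, lay above the highest without it, at 6.23, so that JAK3 was the only one of the 9 genes whose 6 libraries with IFN-γ did not overlap the other 6, which was so for 9.56% of all genes. The differences were 0.68 for IFN-γ against No treatment (SE 0.19, adjusted p = 0.051), 0.64 for both against CX3CL1 (adjusted p = 0.087) and 0.65 for both against No treatment (adjusted p = 0.0491), the last being called. The effect of CX3CL1 was 0.00 without IFN-γ (95% interval -0.42 to 0.42) and -0.04 with it (interval -0.46 to 0.38). INSL3 lies inside the JAK3 locus on the same strand. It averaged 0.421 to 1.27 TPM in the 4 groups and was not called in any comparison.

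The call of JAK3 for both proteins against No treatment was lost when any one of 8 libraries was left out (all 3 of No treatment, CX3CL1 replicate 1, IFN-γ replicates 1 and 3, and CX3CL1+IFN-γ replicates 1 and 3), at adjusted p of 0.0519 to 0.173, and also with no filter (adjusted p = 0.165), median-ratio scaling (0.0649) or quantile scaling (0.0985). That of IFNB1 in the same comparison was also lost without any one of 8 (all 3 of No treatment, CX3CL1 replicate 1, IFN-γ replicates 2 and 3, and CX3CL1+IFN-γ replicates 1 and 3), at adjusted p of 0.0586 to 0.197, and with either scaling (adjusted p = 0.0566 and 0.0716). Other calls appeared under alternatives. For IFN-γ against No treatment, IFNAR2 was called without No treatment replicate 1 (0.82, adjusted p = 0.0499), IFN-γ replicate 2 (0.84, adjusted p = 0.0382) or CX3CL1+IFN-γ replicate 1 (adjusted p = 0.05, just under the threshold). JAK3 was called there without CX3CL1 replicate 2 or 3, IFN-γ replicate 2 or CX3CL1+IFN-γ replicate 2, at adjusted p of 0.0286 to 0.0485. It was also called there with a minimum of 1 TPM (adjusted p = 0.0481), with no intensity trend (0.0477) and with only the libraries compared (0.0264). For both proteins against CX3CL1, IFNAR2 was called without IFN-γ replicate 1 (adjusted p = 0.0473), and IFNAR2 and JAK3 without CX3CL1+IFN-γ replicate 2 (0.90 and 0.83, adjusted p = 0.0379 and 0.0331). JAK2 was called for both proteins against No treatment without No treatment replicate 1 (0.67, adjusted p = 0.0411), CX3CL1 replicate 3 (adjusted p = 0.0499) or CX3CL1+IFN-γ replicate 2 (0.71, adjusted p = 0.0202), from 0.55 (adjusted p = 0.0659) with all libraries. The averaged IFN-γ effects of IFNAR2, JAK3 and IFNB1 were called without each of the 12 libraries in turn. For IFNB1 this was under the filter that kept it only through the libraries with IFN-γ.

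**Figure D3:**
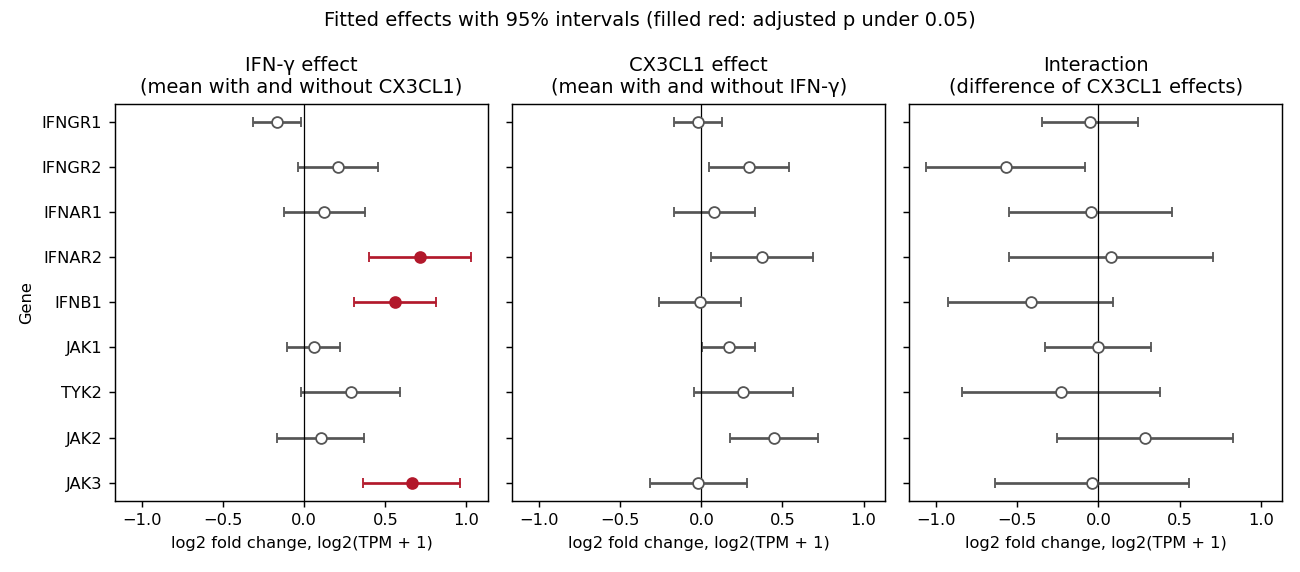
Fitted log2 fold changes (horizontal axes, log2(TPM + 1) scale) with 95% intervals for the 9 genes: the IFN-γ effect and the CX3CL1 effect, each averaged over the other protein (6 libraries against 6), and their interaction; filled red points had an adjusted p under 0.05. IFNAR2, IFNB1 and JAK3 are filled in the IFN-γ panel, and no gene is filled in the other panels.

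Read comparison by comparison, IFN-γ against No treatment called 1 of the 9 genes (IFNB1), beside 7.85% of all genes. IFNB1 passed the filter only through the libraries with IFN-γ, so this call and its call for both proteins are not independent of the filter. In 5 of the 9 the libraries did not overlap (IFNGR2, IFNAR2, IFNB1, JAK3 and IFNGR1, of which IFNGR1 was lower), beside 34.2% of all genes. CX3CL1 against No treatment called 0 of 9 beside 1.95%, and IFNGR2 was the 1 gene without overlap, beside 11.2%. Both proteins against IFN-γ called 0 of 9 beside 0.362%, and JAK1 and JAK2 did not overlap, beside 16.3%. Both against CX3CL1 called 0 of 9 beside 4.7%, and IFNAR2 and JAK3 did not overlap, beside 19.5%. Both against No treatment called 3 of 9 (IFNAR2, IFNB1 and JAK3), beside 11.9%, and 7 of 9 did not overlap (all but IFNAR1 and JAK2), beside 31.2%. With 3 libraries a group an exact permutation test could not go below p = 0.1, so the calls rest on the variance model across all genes. The median difference of the 9 genes was 0.40 for IFN-γ against No treatment, where the median over all genes tested was 0.03. It was 0.20 for CX3CL1 against No treatment (all genes -0.02) and 0.55 for both against No treatment (0.02). For both proteins it was 0.06 against IFN-γ (-0.003) and 0.17 against CX3CL1 (0.04). The comparisons with No treatment share the same untreated libraries, and these medians describe and do not test.

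The balance of the paired chains was described by the log2 ratio of their TPM within each library, with no test. IFNGR1 to IFNGR2 stood at -0.25 ± 0.26 in No treatment, -0.84 ± 0.23 with CX3CL1, -0.91 ± 0.17 with IFN-γ and -0.96 ± 0.26 with both (SD, n = 3). All 9 treated libraries had a lower ratio than the 3 untreated ones. IFNAR1 to IFNAR2 stood at 0.22 ± 0.12, -0.02 ± 0.10, -0.34 ± 0.20 and -0.71 ± 0.19 in the same order, so that IFNAR1 was the more abundant chain in the untreated libraries and IFNAR2 in all 6 libraries with IFN-γ. JAK1 to JAK2 stood at 0.47 ± 0.12, 0.34 ± 0.15, 0.58 ± 0.22 and 0.14 ± 0.33, with overlap among all groups.

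**Figure D4:**
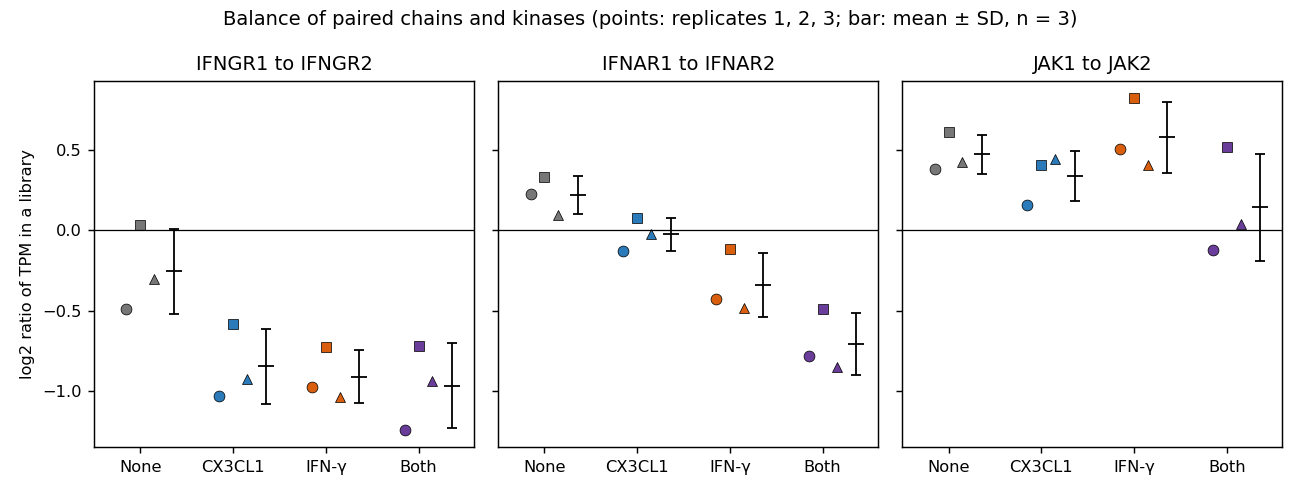
Log2 ratio of TPM within each library (vertical axis) for IFNGR1 to IFNGR2, IFNAR1 to IFNAR2 and JAK1 to JAK2 by treatment; circles, squares and triangles are replicates 1, 2 and 3 and bars are the mean ± SD (n = 3). The IFNAR1 to IFNAR2 ratio goes from a mean of 0.22 in No treatment to -0.71 with both proteins, and the IFNGR1 to IFNGR2 ratio is near -0.9 in every treated group.

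Downstream of the receptors, STAT2 and IRF9, which act together in the type I response, rose by 2.64 and 1.12 with IFN-γ alone and by 1.42 and 0.80 with CX3CL1 alone. STAT3 rose by 0.80 with IFN-γ and differed by 0.31 with CX3CL1 (adjusted p = 0.783). STAT5A, STAT5B and STAT6 were not called in either comparison.

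Of 18 negative regulators of interferon and JAK signalling, 2 were called higher with IFN-γ alone, USP18 by 3.20 and SOCS1 by 0.97, beside 7.85% of all genes called in either direction. USP18, which removes ISG15 from proteins and binds IFNAR2, also rose by 2.42 with CX3CL1 alone. SOCS3 was called with both proteins (1.38, adjusted p = 0.000471) and differed by 0.50 with IFN-γ alone (adjusted p = 0.17). None of the 18 was called lower in these 3 comparisons. For the averaged IFN-γ effect 4 were called higher and 1 lower, beside 17.3% of all genes.

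Of 22 genes tested that lead to the transcription of IFNB1, 8 were called higher with IFN-γ alone, 7 with CX3CL1 alone and 11 with both, and none lower, beside 7.85%, 1.95% and 11.9% of all genes. The RNA sensors DDX58 (RIG-I) and IFIH1 (MDA5) rose by 2.09 and 2.40 with IFN-γ and by 1.70 and 1.83 with CX3CL1. IRF7, which drives type I interferon genes, rose by 3.84 with IFN-γ and differed by 1.52 with CX3CL1 (adjusted p = 0.11). NFKB1 rose by 0.93 with CX3CL1 (adjusted p = 0.000254) and differed by 0.21 with IFN-γ (adjusted p = 0.23). IRF3, TBK1 and MAVS were not called in any of these 3 comparisons.

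A list of chains of other receptors that use Janus kinases gave 4 calls of 12 with IFN-γ alone, 1 with CX3CL1 alone and 6 with both. All of these were higher, beside the same 7.85%, 1.95% and 11.9% of all genes. For the averaged IFN-γ effect 4 were called higher and 1 lower, beside 17.3% of all genes. IL2RG, the common gamma chain that carries JAK3, averaged 2.05 ± 0.378 TPM in No treatment, 3.10 ± 0.195 with CX3CL1, 6.63 ± 1.13 with IFN-γ and 6.95 ± 1.56 with both (SD, n = 3), and rose by 1.32 with IFN-γ (adjusted p = 0.000154). IL13RA2, counted in this list although it is a decoy receptor for IL-13, rose by 2.09 with CX3CL1 and by 1.84 with IFN-γ. It was the 1 gene of the list called with CX3CL1 alone. Of the other class II cytokine receptor genes, the family of the interferon receptors, 3 of 8 passed the filter. With IFN-γ alone only F3 (tissue factor) was called, by 0.67 (adjusted p = 0.0277), beside 7.85% of all genes. That call was lost with no filter, with only the libraries compared, and without No treatment replicate 2 or 3 or IFN-γ replicate 1 or 3. Of the 3, 1 was also called higher for both proteins against CX3CL1, for both against No treatment and for the averaged IFN-γ effect. The shares of all genes called there were 4.7%, 11.9% and 17.3%.

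**Figure D5:**
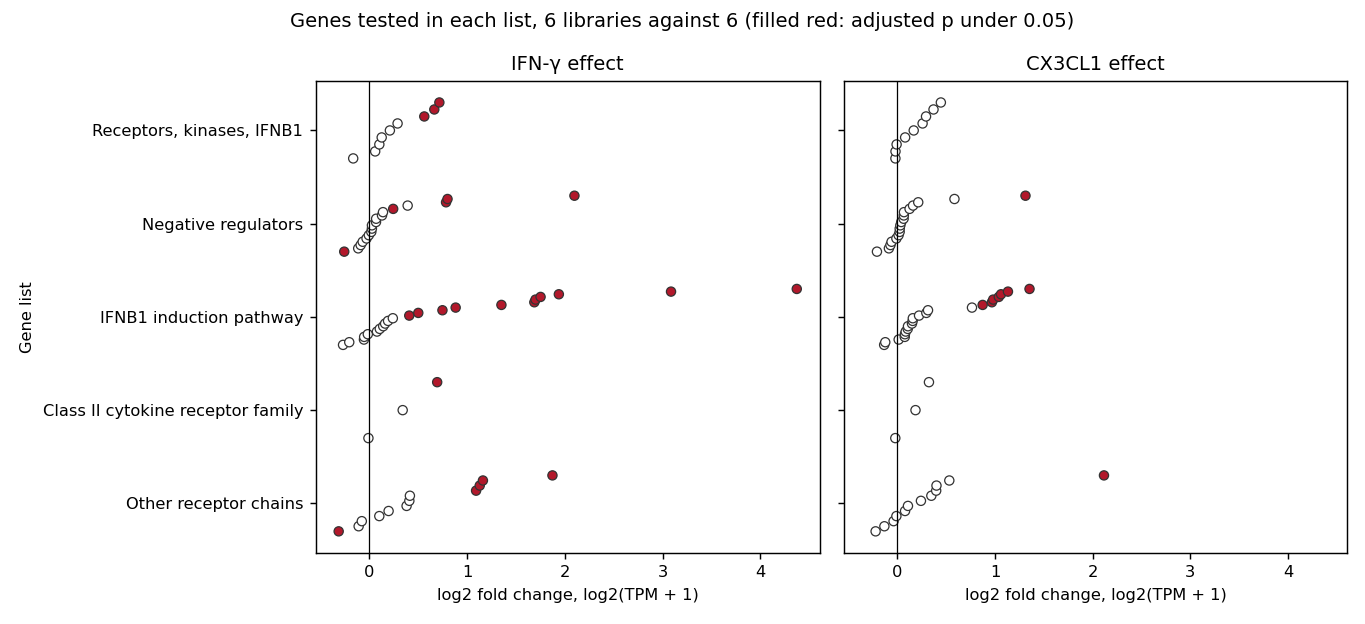
Averaged effects of IFN-γ (left) and CX3CL1 (right) as log2 fold changes on the log2(TPM + 1) scale, one point per gene tested, for the 9 genes and 4 related gene lists (vertical axis); filled red points had an adjusted p under 0.05. In the first row 3 points are filled for IFN-γ, the largest at 0.72, and none for CX3CL1, where 3 of the 4 other lists hold filled points.

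For the 8 genes above 1 TPM, the genes most alike in pattern were found by Pearson's r of log2(TPM + 1) over the 12 libraries among 10484 genes. The libraries share their treatment and replicate structure, so these values describe and do not test. The closest to IFNAR2 were SMG8 (r = 0.989), NPC1 (0.967) and STOM (0.966), and the closest to JAK3 were DYNC1H1 (0.974), BC037034 (0.970) and AP5Z1 (0.967). The closest to IFNGR2 were NRG1 (0.943), CD82 (0.911) and TRAF3 (0.899), and to IFNGR1 ABCA5 (0.946), NAP1L4 (0.944) and NDUFAF7 (0.942). IFNAR1 was most like ATP2A2 (0.968), JCAD (0.965) and CLEC16A (0.963), JAK1 most like TNFAIP8 (0.964), TTC33 (0.945) and EREG (0.933), JAK2 most like CFLAR (0.934), RND3 (0.928) and GNG12 (0.924), and TYK2 most like FOSL2 (0.952), METRNL (0.951) and BAHCC1 (0.939). Among the 28 pairs of the 8 genes themselves, r ran from -0.895 for IFNGR1 with JAK3 to 0.851 for IFNGR2 with TYK2.

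The replicate number moved with the level of several of these genes. Replicate 1 was the highest of the 3 libraries in 23 of 32 cases (8 genes in 4 groups, IFNB1 left aside), against 4 for replicate 2 and 5 for replicate 3. For IFNAR1, IFNAR2 and TYK2 it was the highest in 4 of 4 groups. What the number stands for beyond a biological replicate is not given in the labels.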

How the data were processed

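RNA-seq of CT26 cells was analysed from 1 table of TPM per gene symbol. The authors aligned reads from strand-specific mRNA libraries to mm10 with STAR 2.7.3a and tested counts with DESeq2 1.22.1. The deposited values are TPM. How TPM were derived, and from which annotation, is not given in the sources used here, and counts were not used here. The 9 genes and all gene lists were chosen with earlier results of these data known. One item is not reported here. Groups came from the sample titles.

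The 11878 genes averaging 0.2 TPM or more were fitted with limma 3.58.1 (R 4.3.3) on log2(TPM + 1), with an intensity trend, all 12 libraries and 4 group means, and Benjamini-Hochberg adjustment within each comparison. The procedure was tested on simulated libraries, drawn independently of one another and without replicate effects. Changes were added only to genes with a mean log2(TPM + 1) over 1 in No treatment. Paired libraries and genes near 0, such as IFNB1, were therefore not covered by it. TPM keeps no depth, so no counting interval is given. 26 symbols in the table had been turned into dates and 2 names occurred more than once. None is among the 9.

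Pairing was checked by correlating deviations from group means. Same-numbered libraries correlated at 0.429, 0.46 and 0.22 between No treatment and IFN-γ, 0.351, 0.353 and 0.428 between CX3CL1 and both, and 0.63, 0.635 and 0.649 between IFN-γ and both. Between No treatment and CX3CL1 (0.387, 0.00472 and 0.301) and No treatment and both (0.312, 0.447 and 0.0324) not every pair exceeded 0.1. Between CX3CL1 and IFN-γ, which were not compared directly, the values were 0.584, 0.361 and 0.226. Libraries with different numbers correlated at -0.477 to 0.253 over all groups. Alternatives were another pseudocount (0.1), no filter, a minimum of 1 TPM, median-ratio and quantile scaling, no trend, only the libraries compared, a replicate block and leaving out each library. Named genes were the 9, examples from each list with the largest changes or needed for contrast, and for each of the 9 above 1 TPM the 3 genes most alike in pattern. Gene positions are from GENCODE vM21 (GRCm38).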

Additional observations from a re-analysis of the deposited data

How the results depend on the processing

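Of 1404 recomputed values of single genes, 1276 kept their direction and their side of the threshold, 25 lost the call, 39 gained it and 64, in 18 results, changed sign. None of the 64 was called, with or without the alternative, and their lowest adjusted p was 0.854. The number of the 9 genes called for IFN-γ against No treatment (1) was 0 with no filter, 2 with no intensity trend or only the libraries compared, 5 with the replicate block, and 0 to 3 when a library was left out. For both proteins against No treatment (3) it was 1 with no filter, with median-ratio scaling and with quantile scaling, and 1 to 4 when a library was left out. For the averaged IFN-γ effect (3) it was 2 with a minimum of 1 TPM, where IFNB1 was not tested, and 3 without each library. IFNGR1 was called lower there with median-ratio scaling (-0.22, adjusted p = 0.0261) and quantile scaling (-0.24, adjusted p = 0.0163). For the averaged CX3CL1 effect (0) it was 1 with median-ratio scaling, and 0 to 1 when a library was left out. For CX3CL1 against No treatment and both proteins against CX3CL1 (0 each) it was 0 to 1 and 0 to 2 when a library was left out. The cause of these moves was not tested.

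With the replicate block, calls among the 9 went to 1 for CX3CL1 against No treatment, 2 for both against CX3CL1, 6 for both against No treatment, 6 for the averaged IFN-γ effect and 3 for the averaged CX3CL1 effect, and stayed at 0 for both against IFN-γ and for the interaction. Calls over all genes went from 232 to 455 for CX3CL1, 43 to 95 for both against IFN-γ, 1417 to 2464 for both against No treatment, 2059 to 3442 and 302 to 628 for the averaged effects, and 0 to 52 for the interaction. The lowest counts over all genes were 536 of 932 for IFN-γ (without No treatment replicate 3), 102 of 232 for CX3CL1 and 146 of 302 for its averaged effect (no filter), and, without CX3CL1+IFN-γ replicate 3, 16 of 43 for both against IFN-γ, 268 of 558 for both against CX3CL1 and 920 of 1417 for both against No treatment. With no filter, calls among the gene lists fell from 12 to 6 of the 24 interferon response genes and from 7 to 4 of the IFNB1 induction genes for CX3CL1, and from 2 to 1 of the negative regulators and from 1 to 0 of the class II receptor genes for IFN-γ. The negative regulators also gave 1 call under both scalings and without any one No treatment library or IFN-γ replicate 3, and the class II genes gave 0 without No treatment replicate 2 or 3, IFN-γ replicate 1 or 3, or with only the libraries compared, and 2 with the replicate block. TPM with unknown depth limits IFNB1 most, since 2 of its 12 values were 0.

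Of those that changed sign, 8 did so under another setting. JAK3 for CX3CL1 against No treatment was -0.00085 with a pseudocount of 0.1. IFNB1 for the averaged CX3CL1 effect was 0.14 with that pseudocount, 0.0019 with median-ratio scaling and 0.0070 with quantile scaling. JAK1 for both against CX3CL1 was -0.012 with median-ratio scaling. With quantile scaling IFNGR1 for CX3CL1 was -0.013, IFNGR2 for both against IFN-γ -0.0093 and the interaction of JAK1 0.0013. The other 56 left out a library. Their ranges were -0.13 to 0.16 for JAK3 and -0.047 to 0.077 for IFNGR1 with CX3CL1 alone, and -0.13 to 0.082 for JAK2 with IFN-γ alone. For the averaged CX3CL1 effect they were -0.085 to 0.064 for IFNB1, -0.046 to 0.017 for IFNGR1 and -0.094 to 0.073 for JAK3. For both against CX3CL1 they were -0.039 to 0.15 for JAK1, -0.20 to 0.034 for IFNGR2, -0.022 to 0.37 for TYK2 and -0.028 to 0.19 for IFNAR1. For both against IFN-γ they were -0.11 to 0.094 for IFNGR2, -0.19 to 0.14 for JAK3 and -0.073 to 0.17 for IFNAR1. For the interaction they were -0.10 to 0.089 for JAK1, -0.090 to 0.24 for IFNAR2, -0.20 to 0.14 for JAK3, -0.19 to 0.068 for IFNAR1 and -0.12 to 0.0030 for IFNGR1.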
